A study of Mus musculus with 20 samples.

Results

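Some stretches of chromatin were listed as accessible at both ends of a myeloid differentiation time course but were absent from the lists in its middle. These regions are described here: they hold a peak at 0 h and at 120 h and none at 36 h or 48 h. They were chosen by merging peaks of the 10 deposited lists wherever they shared at least 1 bp, directly or through a chain of overlaps, and by reading which lists had a peak in each merged region. Of 88351 merged regions, 17619 were listed at both 0 and 120 h, and 324 of these were missing at both 36 and 48 h, which is 1.84% of them. By the deposited distance of the widest peak, 141 of the 324 lay within 1000 bp of a transcription start site (TSS) and are called promoter regions, and 183 lay farther away and are called distal. They made up 1.82% of the 7759 promoter regions and 1.86% of the 9860 distal regions listed at both ends. These counts follow from the choice of regions and are given as a description. They depend on which peaks are used: with only the 23620 widest peaks of each list, 832 regions were found, 3.34% of promoter and 11.2% of distal regions. This cut equalizes list length and also removes narrow peaks from the longer lists, so the 2 effects cannot be told apart. They are compared below with the 15946 regions listed at all of 0, 36, 48 and 120 h, called kept regions.

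The cells were mouse ER-Hoxa9-Lys-GFP cells of strain C57BL/6, grown in culture, and accessible DNA was mapped by ATAC-seq, where Tn5 transposase cuts open chromatin and adds adapters to it. As background, the name denotes Hoxa9 joined to an estrogen receptor, so that estradiol (E2) keeps it active, and a green fluorescent reporter tied to lysozyme. Cells with E2 (0 h) and cells 4, 8, 12, 24, 36, 48, 72, 96 and 120 h after E2 was washed out were sampled, with 2 replicates each, 20 samples in all. All groups carried the same fusion and reporter and were grown in medium with serum and stem cell factor. Nuclei of a preparation were divided between 2 transposition reactions, and the 2 replicates of a time may be no more than technical. The files give 1 list per time for both replicates, without read counts. The spread between replicates and the depth are therefore unknown, no p-value is given, and a difference between lists cannot be told apart from a difference in depth or peak calling. The lists held 23620 to 62559 peaks, and those of 0, 36, 48 and 120 h held 55261, 59683, 59562 and 23620. Intervals are 95% Wilson intervals for shares and binomial intervals for medians, and cover counting error only.

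Promoters of widely used genes are as a rule open in most cell types, often lie in GC-rich DNA and give broad ATAC-seq peaks. Enhancers and other distal elements give narrower peaks and differ more between cell states. In neutrophil differentiation, distal elements of progenitor genes close while those of granule, adhesion and migration genes open.

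The letters before the start site are given for 3 promoter regions as examples. They are the 3 widest promoter regions with a matched start whose 250 bases before that start carry no annotated gene, and 32 of 110 matched promoter regions met this condition. Ube2r2 encodes a ubiquitin-conjugating enzyme, Rhob a small GTPase that acts on the actin skeleton and Cnn3 an actin-binding calponin. The sequences are RefSeq's for GRCm38.p6, which shares its coordinates with mm10, each 5′ to 3′ on the gene's strand and ending at the base before the start. Capitals mark GGGCGG (the GC box) and CCAAT on either strand, the only motifs of the 9 searched that these windows held.
Ube2r2 (chr4:41135771-41136020, plus strand): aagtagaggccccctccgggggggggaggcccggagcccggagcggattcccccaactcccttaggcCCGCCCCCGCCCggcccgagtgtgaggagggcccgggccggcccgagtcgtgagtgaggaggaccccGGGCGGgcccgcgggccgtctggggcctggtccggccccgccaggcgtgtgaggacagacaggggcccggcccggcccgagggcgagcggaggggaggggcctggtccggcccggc
Rhob (chr12:8500010-8500259, minus strand): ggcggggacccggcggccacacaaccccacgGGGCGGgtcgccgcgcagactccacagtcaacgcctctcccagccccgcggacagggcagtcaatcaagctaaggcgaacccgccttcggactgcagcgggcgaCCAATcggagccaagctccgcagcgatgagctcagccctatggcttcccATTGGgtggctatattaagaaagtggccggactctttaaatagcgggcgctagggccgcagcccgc
Cnn3 (chr3:121426291-121426540, plus strand): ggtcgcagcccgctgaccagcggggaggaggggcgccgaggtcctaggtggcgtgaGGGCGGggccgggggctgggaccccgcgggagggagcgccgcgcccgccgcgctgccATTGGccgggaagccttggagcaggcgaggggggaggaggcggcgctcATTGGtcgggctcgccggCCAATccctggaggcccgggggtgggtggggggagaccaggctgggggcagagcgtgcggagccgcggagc

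Ube2r2 held 3 GC boxes, of which 2 stand directly side by side, and no CCAAT box. Rhob held 1 GC box and 2 CCAAT boxes, and Cnn3 held 1 GC box and 3 CCAAT boxes.

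The first question was how the 324 regions behaved in the 6 lists where neither presence nor absence was required. Peaks of these lists did take part in the merging. The 324 regions came and went there too. Only 59 of the 324 (18.2%, interval 14.4 to 22.8%) were listed at all of 4, 8, 12, 24, 72 and 96 h, against 76.4% (75.7 to 77.0%) of kept regions. The shares of promoter regions listed at 4, 8, 12, 24, 72 and 96 h were 75.9%, 71.6%, 70.9%, 66.0% (57.8 to 73.3%), 74.5% and 90.1%. Those of distal regions were 69.4%, 69.4%, 71.0%, 57.9% (50.7 to 64.8%), 57.4% and 77.6%. Distal regions were thus listed least often in the lists next to the gap, promoter regions least often in the 24 h list, and both most often in the 96 h list. Kept regions were listed in 92.3 to 97.4% of cases in each of these lists.

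**Figure D1:**
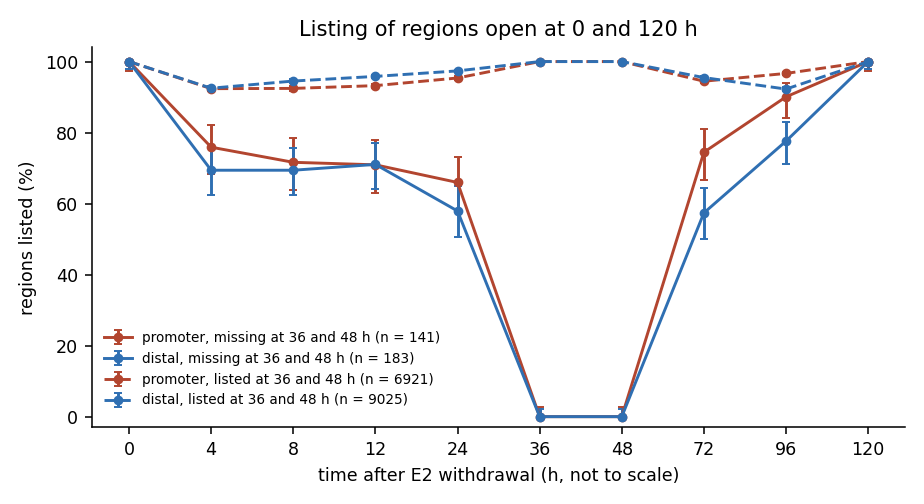
Share of regions listed at 0 and 120 h that had a peak in each list, by time after E2 withdrawal, with 95% Wilson intervals. The 0, 36, 48 and 120 h points are fixed by the choice of regions; in the other lists the 141 promoter and 183 distal regions missing at 36 and 48 h lie between 57.4% and 90.1%, and kept regions between 92.3% and 97.4%.

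A gap limited to 36 and 48 h was the most frequent of 52 different patterns, and it described 31 promoter and 28 distal regions. At 24 and 72 h, the lists on either side of the gap, 73 promoter regions (51.8%) and 68 distal regions (37.2%) were listed at both. A further 16 promoter and 40 distal regions were missing at 24, 36, 48 and 72 h. At the other extreme, 4 distal regions had a peak at 0 and 120 h and in no list between them. Their nearest genes were Cd28, a T cell costimulatory receptor, Vav3, a guanine nucleotide exchange factor, Ccdc80 and Mcur1, a mitochondrial calcium regulator. In this order their peaks were 644, 604, 384 and 356 bp wide at the start and 360, 275, 559 and 346 bp at the end. These 4 were chosen after their values were seen.

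The label of a mid-course gap was then set beside gaps at other times. Gaps of 2 neighbouring lists also occurred elsewhere. They were more frequent at 4 and 8 h and at 8 and 12 h, and less frequent at the other pairs, than the 1.84% at 36 and 48 h. Of the 17619 regions listed at both ends, 434 (2.46%) were missing from the 4 and 8 h lists, 368 (2.09%) from 8 and 12 h, 296 (1.68%) from 12 and 24 h, 262 (1.49%) from 24 and 36 h, 266 (1.51%) from 48 and 72 h and 184 (1.04%) from 72 and 96 h. The 324 regions missing at 36 and 48 h therefore lie inside the range of the other pairs, although the steps between lists differ in hours. Promoter regions were 43.5% (38.2 to 49.0%) of those missing at 36 and 48 h and between 34.8% and 54.1% of those missing at the other pairs. Of the 324 regions, 45 were also missing at 4 and 8 h and 31 at 72 and 96 h.

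**Figure D2:**
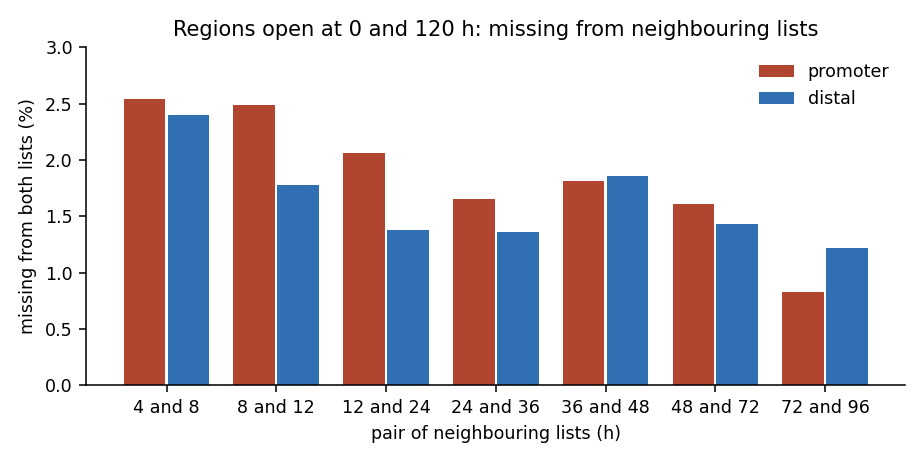
Share of the 7759 promoter and 9860 distal regions listed at 0 and 120 h that were missing from both lists of each neighbouring pair. For 36 and 48 h the bars stand at 1.82% and 1.86%; the tallest bars are those of 4 and 8 h, at 2.54% for promoter and 2.40% for distal regions.

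The 324 regions can also be set beside those missing from a single list, as a description, since the same lists chose them. Among promoter regions listed at both ends, 498 were missing at 36 h and 481 at 48 h, and 141 at both. For 4 and 8 h the counts were 732, 694 and 197, and for 8 and 12 h they were 694, 685 and 193. Among distal regions, 489 were missing at 36 h, 529 at 48 h and 183 at both. For 4 and 8 h the distal counts were 888, 694 and 237, and for 8 and 12 h they were 694, 564 and 175. Of distal regions missing at 36 h, 37.4% were also missing at 48 h, and 34.6% the other way round. Relative to the single lists, this distal overlap was larger than at any other neighbouring pair. Among promoter regions the shares were 28.3% and 29.3%. Whether their overlap was also the largest depends on how it is set against the single lists.

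Widths separated the promoter regions from the rest. The promoter regions missing mid-course were broad, and broader than kept promoter regions in each list where they had a peak. Their widest peak had a median of 1191 bp (1146 to 1289 bp), with a range of 344 to 2264 bp. In kept promoter regions the median was 1019 bp (1011 to 1024 bp). The widest peak is taken over up to 8 lists for the former and up to 10 for the latter, so single lists are the fairer comparison. At 0 h the median was 1106 bp (1048 to 1172 bp), against 888 bp (879 to 897 bp) in kept promoter regions. It was 1062 bp (943 to 1143 bp) at 24 h, against 846 bp (838 to 852 bp), and 1012 bp (955 to 1092 bp) at 72 h, against 871 bp (864 to 878 bp). By 120 h it stood at 967 bp (913 to 997 bp), against 853 bp (848 to 860 bp). The intervals of missing and kept regions did not overlap at these 4 times. A widest peak over 1000 bp was found in 108 of the 141 promoter regions (76.6%) and in 53.0% of kept promoter regions. The 0 h peak was wider than the 120 h peak in 99 of them (70.2%), against 63.3% of kept promoter regions.

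Distal regions showed no such shift at the ends. Their widest peak had a median of 732 bp (663 to 791 bp), against 687 bp (682 to 693 bp) in kept distal regions. At 0 h the median was 537 bp (477 to 621 bp), against 539 bp (534 to 545 bp), and at 120 h it was 514 bp (461 to 570 bp), against 513 bp (508 to 518 bp). At 72 h, by contrast, the 105 distal regions with a peak had a median of 690 bp (594 to 730 bp), against 579 bp (573 to 585 bp). The spread was larger than in kept distal regions, since 13.7% of the 183 had no peak of 400 bp or more and 15.3% had one over 1000 bp, against 6.42% and 10.8%. The median widest peak of promoter regions was 1.63 times that of distal regions, and in kept regions 1.48 times.

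**Figure D3:**
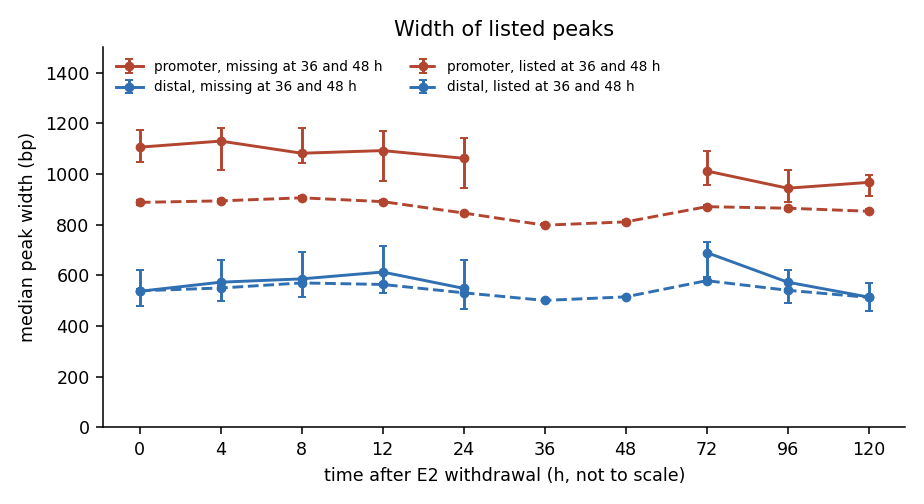
Median width of the peaks listed at each time, with binomial 95% intervals for the median, for regions missing at 36 and 48 h (solid lines) and kept regions (dashed lines). Solid and dashed promoter lines stand at 1106 and 888 bp at 0 h, while the distal lines stand at 537 and 539 bp.

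Read the other way, the share missing mid-course was highest for the broadest promoter regions and for the narrowest distal ones. Of promoter regions listed at 0 and 120 h, 0.83% were missing when the widest peak was 600 to below 800 bp, 0.88% from 800 to below 1000 bp, 1.70% from 1000 to below 1200 bp, 2.73% from 1200 to below 1500 bp and 5.38% (27 of 502, 3.72 to 7.71%) from 1500 bp up. Below 400 bp, 2 of 56 promoter regions were missing (0.98 to 12.1%), too few to place. Of distal regions, 3.80% (25 of 658, 2.59 to 5.55%) were missing below 400 bp, 1.33% from 600 to below 800 bp and 2.71% from 1000 to below 1200 bp. Distal regions of 1500 bp or more numbered 101, of which 3 were missing (1.02 to 8.37%).

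**Figure D4:**
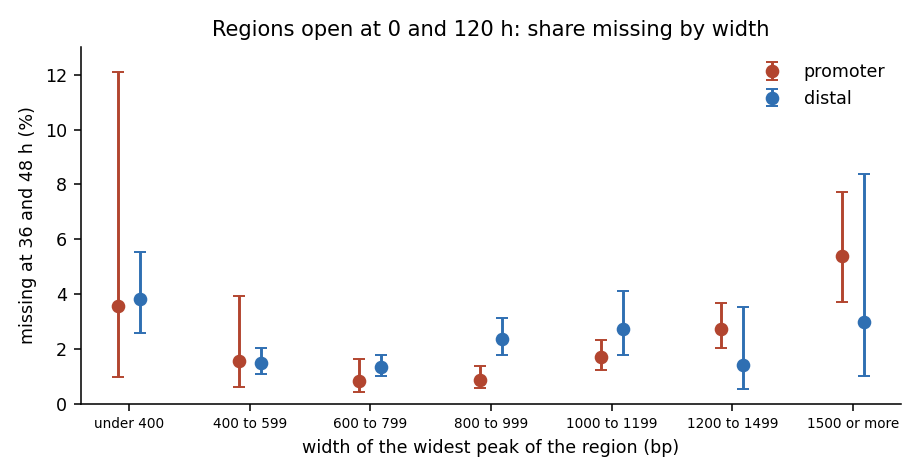
Share of regions listed at 0 and 120 h that were missing at both 36 and 48 h, by width of the widest peak, with 95% Wilson intervals. Promoter regions go from 0.83% at 600 to 800 bp to 5.38% at 1500 bp or more.

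A dependence on width was also present in the other lists, where it had a narrow and a broad end. For each list between the ends, promoter regions listed in both neighbouring lists were divided by the narrower of the neighbouring peaks. With a neighbour of 700 to below 900 bp, 2.56 to 6.55% lacked a peak in the list between, depending on the list. With 1300 bp or more it was 8.30 to 13.3%, and with less than 300 bp 10.9 to 18.6%. At 36 h the 3 values were 3.72%, 13.3% and 16.0%, and at 48 h 4.73%, 10.2% and 10.9%. The share was thus highest below 300 bp in each of the 8 lists, although its interval overlapped that at 1300 bp or more except at 96 h. In each it was also higher at 1300 bp or more than at 700 to below 900 bp, so that the absence of broad promoter peaks was not limited to 36 and 48 h. For distal regions the 8 lists gave 9.17 to 23.3% below 300 bp, 4.34 to 7.55% from 500 to below 700 bp and 6.25 to 14.4% at 1300 bp or more, the last from as few as 28 regions. The part of peak calling in this was not tested.

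The widest promoter regions are described by their nearest gene, with absence at 36 and 48 h fixed by the choice of regions. Hira, a histone chaperone that deposits the variant H3.3, had the widest (chromosome 16, 18876068 to 18878374 in mm10, counted from 1, over the promoter). Its peak was 2169, 2119, 2078, 2127 and 2264 bp wide at 0, 4, 8, 12 and 24 h, absent at 36 and 48 h, and 1286, 1223 and 1443 bp wide at 72, 96 and 120 h. The nearest peak listed at 36 or 48 h was 17069 bp away. Among the 12 widest promoter regions this distance went from 545 bp at Plcl2 to 41079 bp at Rev3l. Rev3l, the catalytic subunit of DNA polymerase zeta (chromosome 10, 39731085 to 39733259), had widths of 2084, 2133, 2170, 2135 and 2109 bp from 0 to 24 h and of 1373, 1643 and 1594 bp from 72 to 120 h. Both were thus narrower after the gap than before it.

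Pigp, an enzyme of glycosylphosphatidylinositol anchor synthesis (chromosome 16, 94370052 to 94371975), kept its width across the gap, with 1845, 1809, 1835, 1835 and 1835 bp from 0 to 24 h and 1843, 1594 and 1265 bp from 72 to 120 h. Ep300, a histone acetyltransferase and coactivator (chromosome 15, 81584931 to 81586736), had 1753, 916, 1773, 1754 and 1722 bp from 0 to 24 h and 1776, 1618 and 1585 bp from 72 to 120 h. Both peaks were about as wide just after the gap as just before it. B4galnt1, a ganglioside synthase, was listed at 1848 to 1898 bp up to 24 h and at 1474 to 1491 bp from 72 h. Rab28, a small GTPase, was listed at 1616 to 1659 bp up to 24 h and at 1012 to 1118 bp from 72 h.

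Other wide promoter regions had further gaps. Rhob (chromosome 12, 8498600 to 8500537, over its only exon) was listed at 1421 to 1897 bp up to 24 h, missing at 72 h as well, and 1180 and 1173 bp wide at 96 and 120 h. Ube2r2 (chromosome 4, 41134765 to 41136682) was listed at 0, 8, 72, 96 and 120 h with 1494, 1918, 1520, 1463 and 1405 bp, and was missing at 4, 12 and 24 h as well. Mier3, a corepressor gene, was listed only at 0, 12, 72, 96 and 120 h, with 2144, 2178, 338, 1082 and 994 bp. Atmin, a cofactor of the kinase Atm, was missing at 4, 8 and 12 h. Plcl2, a phospholipase C-like protein, was missing at 96 h. Cnn3 (chromosome 3, 121425989 to 121427543, over the 5′ UTR in exon 1 of 7) was listed in all 6 other lists, at 1467 to 1555 bp up to 24 h and at 644 to 773 bp from 72 h.

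**Figure D5:**
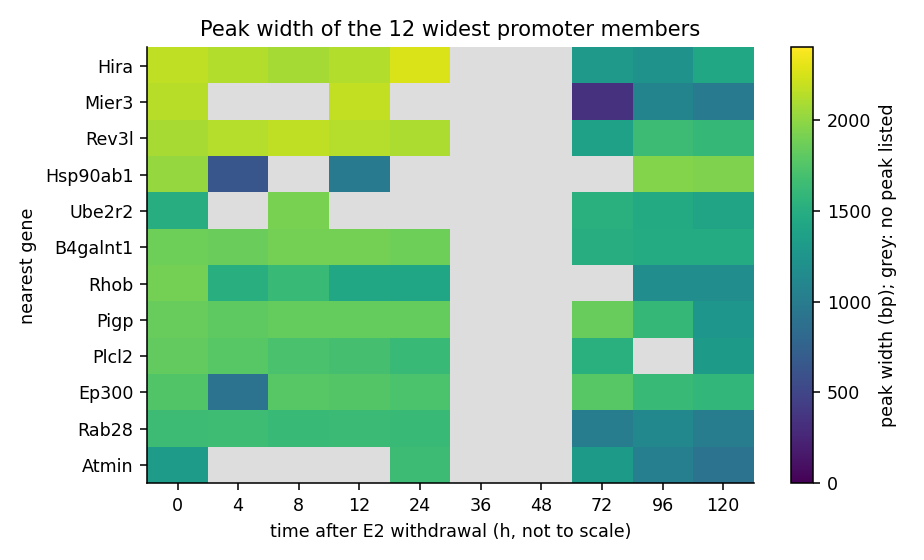
Width of the peak at the 12 widest promoter regions in each list, with grey where no peak was listed. All are grey at 36 and 48 h by the choice of regions; Mier3, Hsp90ab1, Ube2r2 and Atmin are grey in 3 further columns each.

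The 5 widest regions that were also missing at 24 and 72 h were all promoter regions. Hsp90ab1, the constitutive cytosolic chaperone (chromosome 17, 45572371 to 45574443), was listed at 0, 4, 12, 96 and 120 h only, with 2023, 642, 986, 1959 and 1935 bp. Epc2, a subunit of an acetyltransferase complex, had 1457, 1416 and 1418 bp at 0, 4 and 8 h, none from 12 to 72 h, and 1396 and 1377 bp at 96 and 120 h. Usp3, a histone deubiquitinase, was listed at 1245 to 1519 bp from 0 to 12 h and at 1228 bp at 120 h only. Lpp, an adhesion protein gene, was listed at 0, 4 and 120 h with 1475, 1503 and 1300 bp. Pmepa1, an inhibitor of TGF-beta signalling, was listed at 0, 12, 96 and 120 h with 1554, 449, 377 and 408 bp. Except at Pmepa1, the late peak was thus at least 1228 bp wide.

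Gene groups were compared by how many of their promoter regions listed at both ends were missing mid-course, beside 1.82% of all promoter regions. In the 21 lists, 12 of 960 promoter regions (1.25%) were missing, and 13 lists had none. Among the latter were 65 regions of ribosomal protein genes, 55 of autophagy and lysosome genes, 59 of RNA polymerase II and mediator genes, 50 of splicing genes and 46 of histone genes. Read against 1.82%, no missing region among 46 to 65 is near the background. The chromatin list had 3 of 64 missing, namely Ep300, Brd3, a reader of acetylated histones, and Hdac4, a class II deacetylase. The remaining 9 stood alone or in pairs.

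Brd3 was listed at 0, 12, 24, 72 and 120 h with 1341, 1425, 1433, 1503 and 1262 bp. Hdac4 had 1100 to 1180 bp from 0 to 12 h, none at 24 h, and 1104 to 1151 bp from 72 h. Cdc45, a part of the replicative helicase, had 1092 to 1461 bp up to 24 h and 1013 to 1388 bp from 72 h. Uqcrc2, a core subunit of respiratory complex III, had 1224 and 1307 bp at 0 and 4 h, 1084 bp at 24 h and 861 to 1005 bp from 72 h. All 4 were peaks of over 1000 bp at 0 h. Zfp994, a zinc finger gene, was the only 1 of 225 regions of Zfp genes, with 859 to 971 bp in each list but 24, 36 and 48 h.

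The neutrophil surface, inflammatory and immediate early lists had 5 promoter regions among the 141. Fcer1g, the signalling chain shared by Fc receptors (chromosome 1, 171233994 to 171234844), was listed in all 6 other lists, with 745, 780, 806, 837 and 803 bp from 0 to 24 h and 842, 832 and 831 bp from 72 to 120 h. This narrow range, on both sides of the gap, is unlike that of Clec4d. Clec4d, a C-type lectin receptor of phagocytes, had 445, 485, 443 and 271 bp from 0 to 12 h, none from 24 to 72 h, and 265 and 554 bp at 96 and 120 h. They were 2 of 20 promoter regions of the neutrophil surface list. Cxcl2, a neutrophil chemoattractant, was listed at 0, 8, 12, 24, 96 and 120 h with 830, 378, 845, 815, 878 and 911 bp. Tnfaip2, a target of tumour necrosis factor, was listed at the same times with 1135, 1065, 705, 1143, 700 and 751 bp. They were 2 of 32 in the NF-kB and inflammatory list. Of these only Tnfaip2 had a peak wider than the 0 h median of 1106 bp of the missing promoter regions. Gadd45g, a stress response gene of the immediate early list, had 700 bp at 8 h and 197 to 363 bp in its 6 other listed times. No promoter region of the neutrophil granule, myeloid factor, progenitor, lymphoid or erythroid lists was among the 141, out of 8, 37, 19, 6 and 3 listed at both ends.

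Distal regions were 100 intergenic (54.6%) and 77 intronic (42.1%), close to the 51.1% and 43.8% of kept distal regions. The widest lay at -2820 bp from the start of Mir17, the first microRNA of an oncogenic cluster (chromosome 14, 115040054 to 115041648), on a CpG island. It was 1595, 1051, 953 and 1203 bp wide at 0, 4, 12 and 24 h and 892, 892 and 1099 bp wide at 72, 96 and 120 h, and was missing at 8 h. A peak listed at 36 or 48 h stood 190 bp beside it. The region assigned to Mir15a, a microRNA that lowers Bcl2 (chromosome 14, 61647997 to 61649474, intron 1 of 6 of a noncoding transcript), also lay on a CpG island, with 699 to 1438 bp where listed and no peak at 12 and 96 h. A microRNA was the nearest annotated gene of 10 distal regions (5.46%), against 3.88% of kept ones. In all, 9 of the 183 distal regions (4.92%) held a RefSeq start, against 2.84% of kept distal regions.

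Some of the other wide distal regions lay in introns. Evi5, a regulator of Rab GTPases (chromosome 5, 107868281 to 107869466, intron 1 of 17), had 1111 to 1176 bp in each list except 36, 48 and 96 h. Its region also lay on a CpG island and held a RefSeq start. Insr, the insulin receptor (intron 2 of 21), had 1076 to 1121 bp where listed apart from 754 bp at 96 h, and no peak at 24 h. Smyd3, a methyltransferase (intron 1 of 11), had 950 to 1050 bp from 0 to 12 h and 1378 and 1084 bp at 72 and 120 h. Aff1, a part of the super elongation complex (intron 1 of 19), had 677 to 1126 bp and then 329 bp at 120 h. The remaining 6 of the 12 widest were assigned to Morn1, A630001O12Rik, Srrm1, Ppcdc, Rab6b and 1700060C20Rik, with widest peaks of 1578, 1519, 1358, 1219, 1172 and 1125 bp. Of these regions only that of Ppcdc lay in an intron, and the others were intergenic. That of Morn1 lay on a CpG island. That of Rab6b lay on an IAPLTR2_Mm element, an endogenous retrovirus of the ERVK family.

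Distal regions of gene lists were read beside the 1.86% of all distal regions that were missing. Each is assigned only by the nearest start, which can lie far away, and the distance is given in brackets. The neutrophil surface list had 2 of 52 missing. That at C5ar1 (4929 bp), the receptor of complement C5a, was 272 to 517 bp wide from 0 to 24 h. That at Clec5a (1209 bp), a myeloid lectin, was 287 to 394 bp wide from 0 to 12 h. The myeloid factor list had 2 of 115, nearest to the transcription factor genes Runx2 (121963 bp) and Klf7 (-174154 bp). The NF-kB and inflammatory list had 2 of 72, nearest to Irak2 (23292 bp), a kinase of interleukin-1 receptor signalling, and Tnfaip2 (-5075 bp). The lymphoid list had the most for its length, with 4 of 18. Their nearest genes were Cd4 (-10313 bp), a T cell coreceptor, and Ms4a1 (31703 bp), which encodes CD20. The others were the E protein genes Tcf3 (-12635 bp) and Tcf12 (-56694 bp). The granule list had none of 22. Over the 21 lists 16 of 816 distal regions were missing. Pairs of regions were assigned to 4 genes. Tnfaip2 and Rragc, an activator of mTORC1, each had 1 promoter and 1 distal region, the latter at -5075 and 78490 bp. Fam222a had 2 distal regions, at 29382 and 26595 bp. Mef2a, a MADS-box factor, also had 2, at -71900 and -69624 bp.

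The surroundings of the missing regions were mostly listed. Of 644 neighbouring regions listed at 0 and 120 h, the previous and the next on the same chromosome, 574 (89.1%) were listed at both 36 and 48 h, against 90.5% of all regions listed at both ends. Only 7 pairs of the 324 stood next to each other. A peak listed at 36 or 48 h lay within 200 bp of 4 of the 141 promoter regions (2.84%) and 18 of the 183 distal regions (9.84%), against 3.84% and 3.98% of kept regions. The share was higher than in kept regions for distal regions and not for promoter regions. Kept regions hold their own 36 and 48 h peaks, and only peaks outside a region were counted. The shares of missing and kept regions are therefore not like for like, and no conclusion is drawn from them. All 21 chromosomes held at least 1 region, with shares of the regions listed at both ends between 1.29% on chromosome 17 and 2.68% on chromosome 14, leaving aside chromosome Y with 1 of 14. The intervals of all chromosomes overlapped.

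Sequence features that the choice did not use were much alike in missing and kept promoter regions. A RefSeq window of 250 bases before to 50 after the start was matched by symbol and position for 110 of the 141 promoter regions and 5223 of the 6921 kept ones. Median GC content was 64.5% (quartiles 57.4 to 69.0%) and 61.7% (55.7 to 67.3%), against 52.7% in all 32851 windows of the table. The GC box GGGCGG was found on either strand in 71.8% of the missing (62.8 to 79.4%), 69.7% of kept and 35.7% of all windows. CCAAT was found in 41.8%, 41.5% and 37.4%, and the ETS core CCGGAAG in 17.3% (11.3 to 25.4%), 23.1% and 8.86%. GGAAGT, a further ETS core, which shares letters with CCGGAAG where a T follows it, was in 27.3% (19.8 to 36.3%), 32.7% and 23.8%.

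Rarer motifs were found in few of the missing regions, and their intervals overlapped those of kept regions. The E-box CACGTG was in 6 of 110 windows (5.45%, 2.52 to 11.4%), against 11.7% (10.9 to 12.6%) of kept and 7.15% of all windows. The cAMP response element TGACGTCA was in 1 (0.91%, up to 4.97%), against 4.06% (3.56 to 4.63%) and 1.79%. The AP-1 site TGACTCA was in 1 (0.91%), against 3.29% and 5.20%. The 10-base palindrome bound by NRF1 was in 4 (3.64%), against 2.72% and 0.97%. The TATA box TATAAA was in 4 (3.64%, 1.42 to 8.98%), against 5.49% and 13.6%.

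In the deposited annotation, CpG islands and repeats as a whole had similar shares in missing and kept regions, while some repeat families did not. CpG islands, in the deposited detailed annotation, were named for 12 of 141 promoter regions (8.51%, 4.94 to 14.3%) and for 8.29% of kept ones, and for 5 of 183 distal regions (2.73%) and 3.38% of kept ones. This annotation gives precedence to other classes, so it can miss islands at promoters. Repeats were named for 41 distal regions (22.4%, 17.0 to 29.0%), against 20.9% of kept ones. Within them MIR elements, ancient SINEs, were named for 6 (3.28%, 1.51 to 6.97%), against 0.75% (0.59 to 0.95%), simple repeats for 8 (4.37%, 2.23 to 8.39%), against 1.45% (1.22 to 1.72%), and LTR elements for 11 (6.01%, 3.39 to 10.4%), against 9.97%. Of the LTR elements, the ERVL-MaLR family was named for 2 (1.09%, 0.30 to 3.90%), against 5.03% (4.60 to 5.50%). The 6 MIR elements lay nearest to Trps1, Tnfaip2, Gm5535, Dnajb12, Fbxo32 and Mef2a. The MIR and ERVL-MaLR families and the simple repeats were singled out after their values were seen.

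At the limit between the classes, the promoter regions farthest from a start were Aldh18a1 at -872 bp, with a widest peak of 870 bp, and Gadd45g at -766 bp, with 700 bp. The nearest distal regions were Mcur1 at -1003 bp, with 356 bp, and Alg9 at -1013 bp, with 553 bp.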

How the data were processed

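The authors deposited 1 annotated peak list per time point, belonging to both replicates. HOMER's annotatePeaks.pl and the mm10 build are named per the file headers, and the submitters' processing notes name BWA, MACS2 2.0, STAR 2.5 and mm9, with no role given. Whether replicates were pooled, any Tn5 offset of reads and the peak calling settings are not given in the sources used here. The deposited peak score is 0 for all 504887 peaks, so width was used for ranking. Of the 10607 peaks at 0 h annotated within 1000 bp of a TSS, 8568 (80.8%) had a start of the GRCm38.p6 RefSeq table as near, and the table is not complete.

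From start, end and distance to TSS, regions were built and sorted with Python 3.11.15, numpy 2.4.6, pandas 2.3.3 and scipy 1.17.1, and drawn with matplotlib 3.10.9. Width is end minus start plus 1. The selection step was tested on simulated data: of 20000 simulated regions, 100% of those that met the rule were found. No test across samples was possible, and alternatives covered overlap, list length, minimum width, promoter limit and lists used.

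Named genes were the 12 widest regions per class, promoter regions at listed genes (up to 3 per list), the 5 widest missing at 24 and 72 h too, and 2 on each side of 1000 bp; others are said to be chosen later or illustrate a count. Of the promoter regions that cover a start, sequences were limited to windows without an annotated gene. The regions and lists were chosen with earlier results of these data known.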

Additional observations from a re-analysis of the deposited data

How the results depend on the processing

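Of 112 values under 14 alternatives, 78 stayed within the interval of the reported value or, for the number of regions, within 1.5 times, and 34 did not. The ratio of promoter to distal median width stayed above 1, between 1.44 and 2.08. Where the cause is not plain from the alternative's construction, it was not tested. With only the 23620 widest peaks of a list, 832 regions were found, 29.0% of them promoters and 3.25% on CpG islands, with a promoter median of 1036 bp, a ratio of 1.44 and missing shares of 3.34% of promoter and 11.2% of distal regions. Requiring absence at 24 h too gave 125 regions, a distal median of 609 bp and missing shares of 0.62% and 0.78%. Requiring absence at 72 h too gave 114 regions, 31.6% promoters, 2.63% on CpG islands, a distal median of 604 bp, a ratio of 1.97 and missing shares of 0.46% and 0.79%. Requiring 4 and 96 h as well as the ends gave 195 regions, 49.2% promoters and missing shares of 1.42% and 1.20%. With 96 h in place of 120 h, 37.3% were promoters. With peaks of at least 300 bp only, 2.63% of distal regions were missing. Without chaining, an overlap of 1 bp gave medians of 998 and 504 bp, a ratio of 1.98 and a missing share of 2.23% of promoter peaks, and an overlap of at least 50% of the narrower peak gave 1065 and 512 bp and a ratio of 2.08. Taking class and width from the 0 h peak gave 1101 and 537 bp and a ratio of 2.05. No paired analysis was possible because each list belongs to both replicates of its time, and no replicate could be left out for the same reason. Without read counts, a peak below the authors' threshold cannot be told from closed chromatin.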

Other observations

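Promoter regions of interferon-stimulated genes were seen among the 141, and a list of 52 such genes was drawn up after these values were seen, so its count supports nothing by itself. Of its 30 promoter regions listed at 0 and 120 h, 5 were missing at 36 and 48 h (16.7%), against 1.82% of all promoter regions. Their widest peaks were all below the median of 1191 bp. Ifit1, an antiviral RNA-binding protein, was listed at 0, 8, 12, 24, 72, 96 and 120 h with 442, 430, 539, 537, 399, 564 and 564 bp. Rtp4, an interferon-induced chaperone of receptors, had 602, 649, 690, 674 and 444 bp from 0 to 24 h, none at 72 h, and 653 and 568 bp at 96 and 120 h. Oasl2, of the oligoadenylate synthetase family, had 547, 744, 718 and 679 bp from 0 to 12 h, none from 24 to 72 h, and 880 and 751 bp at 96 and 120 h. Phf11b had 569 bp at 0 h, no peak from 4 to 48 h, and 568, 495 and 447 bp from 72 h on. H2-K1, a class I antigen-presenting molecule, had 921 bp at 0 h, 456, 652 and 882 bp from 4 to 12 h, none at 24 h, and 955, 1067 and 991 bp from 72 h on. A distal region assigned to Ifitm3 was missing at 24, 36 and 48 h and was 213 to 357 bp wide elsewhere.

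Missing promoter regions were broad at the other pairs of lists too. The median widest peak of promoter regions missing from 2 neighbouring lists was between 1125.5 bp (72 and 96 h) and 1213.5 bp (12 and 24 h), against 1015 to 1023 bp in promoter regions listed in both.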
